A study of Homo sapiens with 8 samples.

Results

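Peaks of trimethylated lysine 36 on histone H3 (H3K36me3) were examined near the ends of chromosomes 1 to 22 in HepG2, an established line from a human liver cancer. A peak counted as near an end when its midpoint lay in the last 5 Mb of the hg19 chromosome or, except on the short arms of the acrocentric chromosomes 13, 14, 15, 21 and 22, in the first 5 Mb. This position rule gave 39 ends with 195 Mb of sequence, which is 6.77% of chromosomes 1 to 22, and used no measured value of a peak. It took in 6373 of the 58863 peaks of both lists. Of these, 2547 were among the 23488 peaks of SETD2 knockdown cells and 3826 among the 35375 peaks of control cells. They were set beside the other peaks of the same chromosomes, 20477 in the knockdown and 30661 in the control.

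The knockdown cells (shSETD2) carried a short hairpin RNA, or shRNA, that targets SETD2, and the control cells (shCtrl) a control shRNA. Both were infected with lentivirus in polybrene at 4 µg/mL and then selected with puromycin at 1 µg/mL. Each condition had H3K36me3 immunoprecipitate and input DNA libraries, with 2 replicates in each of the 4 groups. The labels describe no picking of single clones and do not say whether the replicates were separate cultures. The authors merged the replicates ahead of peak calling, which left 1 list per condition. No replicate error can be given, and no difference below was tested. The pooled immunoprecipitates held 67053273 filtered tags in the knockdown and 47880817 in the control, and the inputs 69095038 and 67158956. Coordinates are 1-based on hg19. Intervals are exact (Clopper-Pearson) 95% intervals for shares and exact Poisson 95% intervals for densities of single peaks, and they cover counting error only. The level of SETD2 and the liver markers of the cell line were not checked here, since gene positions on hg19 were not used.

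SETD2 is the enzyme that places the third methyl group on lysine 36, and it travels with the elongating RNA polymerase II, so the mark lies over the bodies of transcribed genes. The stretches next to human chromosome ends are rich in genes on many arms, while the outermost parts hold duplicated sequence shared between chromosomes, in which short reads are hard to place. The ends also differ in their genes. By the RefSeq table on GRCh38.p14, used only for which genes lie at which end, 5p carries TERT, the catalytic subunit of telomerase, and SDHA, a subunit of succinate dehydrogenase. The end of 3p carries CNTN6 and CNTN4, adhesion proteins of neurons, the end of 14q carries IGHM and the other immunoglobulin heavy chain genes, and the end of 20q carries RTEL1, a helicase that acts at telomeres. No gene was assigned to a peak.

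H3K36me3 peaks were frequent near the ends in both conditions. Knockdown cells had 13.1 peaks per Mb near ends and 7.62 elsewhere, and control cells had 19.6 and 11.4. Lengths here are full hg19 lengths with unassembled stretches left in, and the length elsewhere includes the acrocentric short arms. Values per Mb and covered percentages elsewhere would be higher if such stretches were left out. Peaks covered 6.18% of the near-end sequence in the knockdown and 12.4% in the control, against 3.61% and 7.45% of the other sequence. The near-end stretches therefore held 11.06% of the knockdown peaks (10.7 to 11.5%) and 11.09% of the control peaks (10.8 to 11.4%), well above their 6.77% of the sequence. Of all filtered tags, 1.46% lay in near-end peaks in the knockdown and 4.496% in the control. The ends held a larger share of the firmest calls. Among peaks whose false discovery rate (FDR) in the authors' tables was at most 5%, 183 of 1216 in the knockdown (15.05%) and 2096 of 17405 in the control (12.04%) lay near ends. Such calls were 7.18% of near-end knockdown peaks and 54.8% of near-end control peaks, where all peaks of chromosomes 1 to 22 gave 5.28% and 50.5%.

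Peaks per Mb were highest in the outermost Mb of the ends and lowest, within the 5 Mb, in the fourth. In the knockdown the outermost Mb held 17.3 peaks per Mb, the second 15.6, the third 11.9, the fourth 9.77 and the fifth 10.7. In the control the values in the same order were 25.8, 23.3, 18.8, 13.8 and 16.4. Farther in, the knockdown had 7.10 to 9.69 peaks per Mb between 5 and 10 Mb, 9.29 from 10 to 20 Mb, 7.96 from 20 to 40 Mb and 6.87 beyond. The control had 10.3 to 15.4, 14.3, 12.04 and 10.03 over the same distances. The outermost 3 Mb thus lay above every value farther in, while the fourth Mb of the control did not, and that of the knockdown barely did. Peaks reached close to the assembled ends on some arms. The outermost knockdown peak lay 34.3 kb from the end on 7q and the outermost control peak 34.4 kb from the end on 19q. Over the 39 ends the outermost peak lay at a median of 266 kb in the knockdown and 189 kb in the control, and at most 3511 kb (4q) and 3170 kb (3p).

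**Figure D1:**
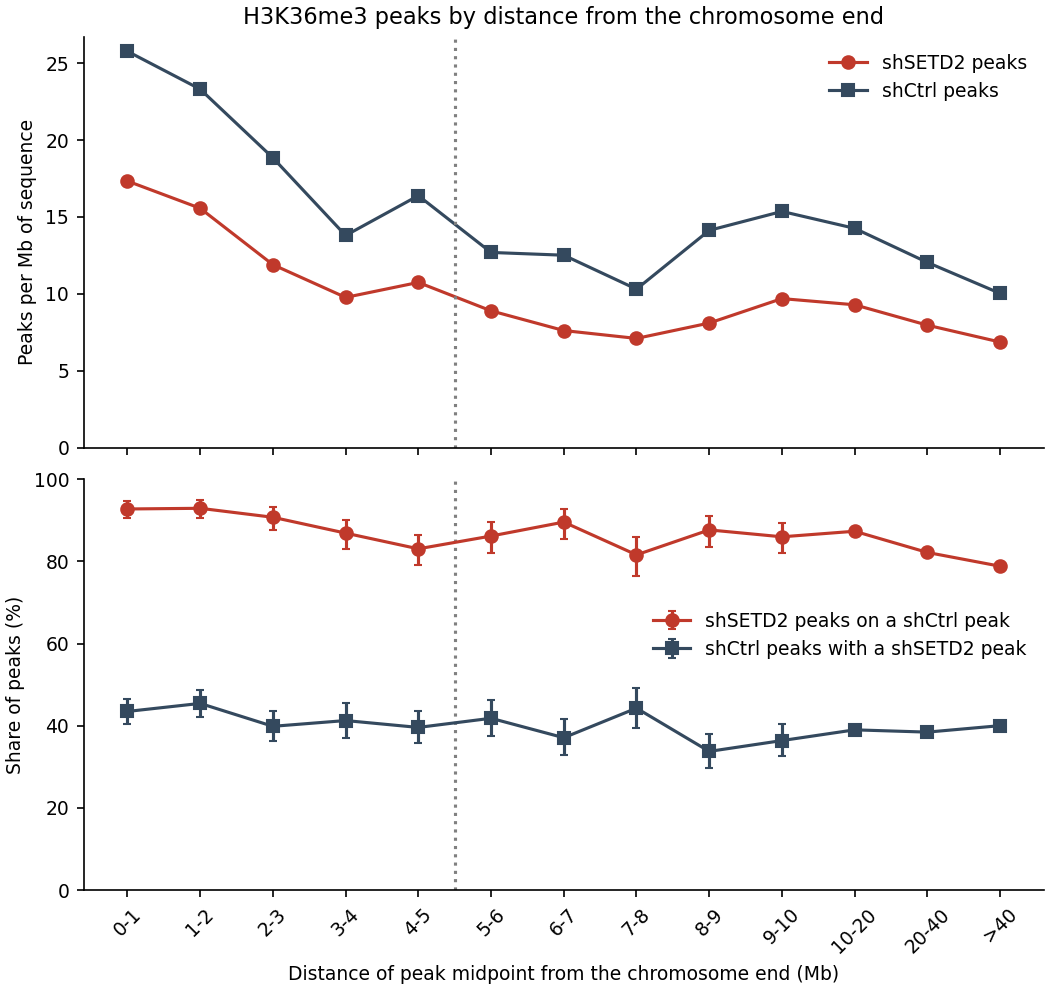
Peaks of the shSETD2 (circles) and shCtrl (squares) lists by distance of the midpoint from the chromosome end, in Mb. The upper panel gives peaks per Mb of sequence, from 17.3 and 25.8 in the outermost Mb to 6.87 and 10.03 beyond 40 Mb, and the lower panel gives the overlap shares with exact 95% intervals; the dotted line marks 5 Mb.

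The single peaks near ends were of much the same width and density as those elsewhere. Their median width was 3.28 kb in the knockdown and 3.62 kb in the control, against 3.29 and 3.69 kb elsewhere. Median tag density, in tags per kb per 1000000 filtered tags, was 0.928 near ends and 0.907 elsewhere in the knockdown, and 1.13 and 1.102 in the control. Fold enrichment over input, the authors' own value for ranking within a list, had a median of 3.87 near ends and 3.70 elsewhere in the knockdown, and 5.23 and 4.80 in the control. In the control it was higher near ends on 20 of 22 chromosomes, and in the knockdown on 16. Peaks of 20 kb or more were 42 of 2547 near ends in the knockdown (1.65%, 1.19 to 2.22%) and 212 of 3826 in the control (5.54%, 4.84 to 6.31%), against 1.37% and 6.001% elsewhere. The widest near-end peaks both lay on 16q. They were chr16:87861577-87902800 in the knockdown, 41.2 kb wide, and chr16:89788272-89882240 in the control, 94.0 kb wide.

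The next comparison asked whether near-end domains of the control were more or less often called in the knockdown. A control peak that a knockdown peak overlapped by at least 1 bp is called kept here. Of the 3826 control peaks near ends, 1618 were kept, which is 42.3% (40.7 to 43.9%). Elsewhere it was 12030 of 30661, or 39.2% (38.7 to 39.8%), and over all control peaks of chromosomes 1 to 22 it was 39.6%. These levels depended strongly on which calls were counted. With an FDR of 5% or less in both lists they were 8.25% near ends and 6.11% elsewhere, and with a fold enrichment of at least 5 they were 24.002% and 19.2%. The gap of 3.05 percentage points was not seen on every chromosome. The share was higher near ends on 16 and lower on 6, chromosomes 1, 7, 9, 10, 14 and 22, with a mean gap of 4.32 points (SD 7.23 between 22 chromosomes). The extremes were chromosome 13, with 53.6% near its end and 32.0% elsewhere, and chromosome 1, with 45.2% and 53.4%.

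The gap went the other way once control peaks of like fold enrichment were compared. In the 5 quintiles of fold enrichment, from weakest to strongest, the share of control peaks with a knockdown peak was 9.16%, 10.3%, 22.2%, 54.5% and 89.4% near ends, against 9.72%, 15.4%, 27.8%, 58.6% and 88.4% elsewhere. Near-end peaks were thus kept less often in 4 of the 5. The intervals were apart in the second (8.21 to 12.8% near ends, 14.5 to 16.3% elsewhere) and in the third (19.3 to 25.3%, 26.7 to 29.0%). Weighted to the same mix of quintiles, the share was 37.0% near ends and 39.9% elsewhere, a gap of -2.88 points. By width, near-end peaks were kept more often in 4 of 5 quintiles and less often in the narrowest. In the widest quintile 88.4% (85.8 to 90.6%) were kept near ends and 81.9% (80.9 to 82.8%) elsewhere, and in the narrowest 8.23% (6.45 to 10.3%) and 9.50% (8.77 to 10.3%). Weighted to the same mix of widths the gap was 3.80 points. The sign of the gap in the share therefore depended on which property of the peaks was held alike.

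Kept near-end peaks were the stronger ones, as elsewhere. Their median fold enrichment in the control was 8.25 and their median width 7.41 kb, against 4.41 and 2.42 kb for the 2208 near-end control peaks without a knockdown peak. Of the kept ones, 450 (27.8%, 25.6 to 30.1%) overlapped 2 or more knockdown peaks, with up to 8 in 1 control peak, where all kept control peaks together gave 26.5%. The median kept peak had 71.0% of its length under knockdown peaks near ends and 68.4% elsewhere.

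The kept share was highest at intermediate tag numbers. Near ends it was 14.1% up to 200 tags, 64.0% from 201 to 1000, 92.8% from 1001 to 2000, 89.8% from 2001 to 3000 and 86.2% from 3001 to 5000. Above 5000 tags it was 68.2% (30 of 44, 52.4 to 81.4%), lower than in the 3 ranges before it and still above the 42.3% of all near-end peaks. Elsewhere it was 89.3% from 1001 to 2000 tags and 64.8% above 5000. The 5 strongest near-end control peaks with no knockdown peak were all wide domains. The first, chr2:242164138-242211255 on 2q, was 47.1 kb wide with 15165 tags, a fold enrichment of 24.05 and a density of 6.72 (6.62 to 6.83). The second, chr16:89940634-89968092 on 16q, had a density of 3.37 (3.27 to 3.47), and the third, chr5:222368-259495 on 5p, 2.11 (2.05 to 2.18). The others were chr21:45088342-45117155 on 21q at 2.74 and chr12:133707581-133736127 on 12q at 2.95. The tables give tags of called peaks only, so the tags that the knockdown held in these stretches are not known, and a missing call is not a missing mark. The lists also differ in how firm their calls are: the median FDR of near-end peaks was 64.6% in the knockdown and 3.86% in the control, and its part in the overlap shares was not tested.

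Looked at from the other list, knockdown peaks near ends lay on control peaks more often than knockdown peaks elsewhere. Of 2547 near-end knockdown peaks, 2291 overlapped a control peak, or 89.9% (88.7 to 91.1%), against 16766 of 20477 elsewhere, or 81.9% (81.3 to 82.4%). Those overlapping none were 256 near ends (10.05%, 8.91 to 11.3%), where 17.2% of all knockdown peaks of chromosomes 1 to 22 overlapped none. The share on control peaks was higher near ends on 17 of 22 chromosomes, with a mean gap of 6.26 points (SD 10.3 between chromosomes). It was 98.1% near the ends of chromosome 1 and 75.3% on the rest of it, 89.4% and 65.3% on chromosome 2, and 83.3% and 58.8% on chromosome 20. It was lower near ends on chromosomes 3, 6, 10, 13 and 14, most of all on chromosome 3, with 71.0% against 85.8%.

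Per Mb of full chromosome length, knockdown peaks without a control peak were about as frequent near ends as elsewhere, at 1.31 and 1.38 per Mb. Control coverage differed more. Within 500 kb on either side of a knockdown peak, control peaks covered a median of 21.7% of the sequence near ends and 16.4% elsewhere. At like coverage by quintile the share of knockdown peaks on control peaks was higher near ends in 4 of 5, as in the lowest (73.6%, 67.8 to 78.8%, against 66.5%, 65.1 to 67.9%) and the highest (96.5%, 95.0 to 97.6%, against 90.3%, 89.4 to 91.3%). In the third quintile it was 84.5% in both. By distance, the share was 92.8% in the outermost Mb and 92.9%, 90.7%, 86.9% and 83.1% in the Mb that followed. It showed no steady fall inward. Between 5 and 10 Mb it ranged from 81.6% to 89.6% per Mb, mostly above the fifth Mb, and it was 87.3% from 10 to 20 Mb, 82.2% from 20 to 40 Mb and 78.8% beyond. Weighted to the same coverage mix the gap was 5.06 points, against 8.07 without weighting. With an FDR of 5% or less in both lists the share was 95.1% near ends and 92.8% elsewhere, a gap of 2.25 points.

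**Figure D2:**
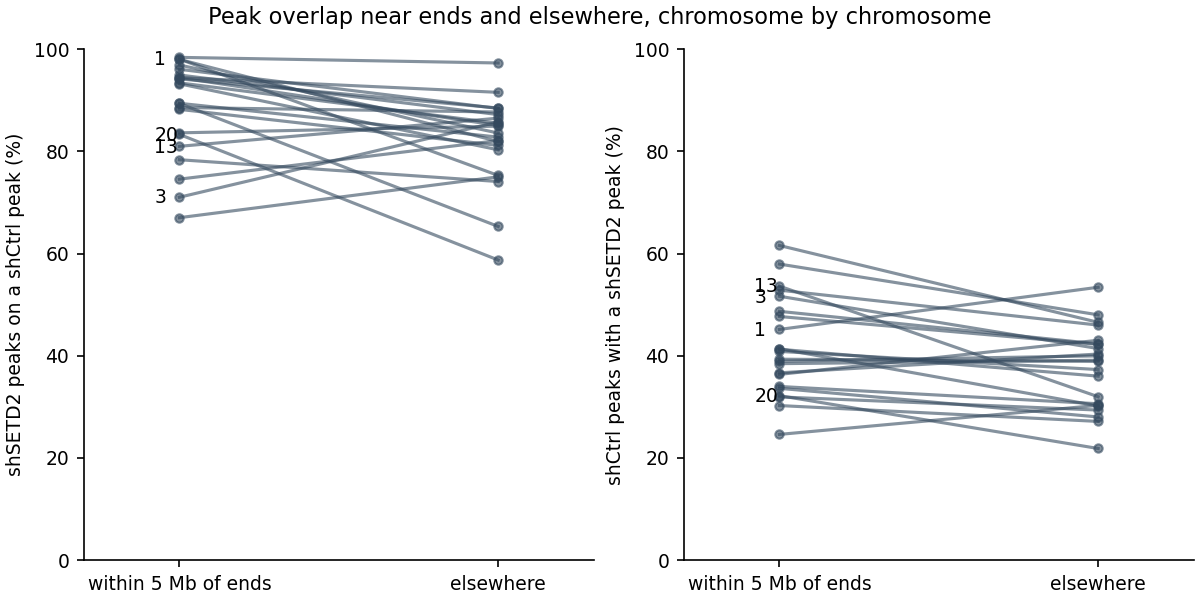
Each line is 1 of the 22 chromosomes, from its near-end stretches to the rest of it, with shSETD2 peaks on a shCtrl peak at left and shCtrl peaks with a shSETD2 peak at right, in percent. Of the left lines, 17 are higher near ends, and of the right ones 16; chromosomes 1, 3, 13 and 20 are numbered.

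Where both lists had a matching peak near an end, the knockdown peak was the less dense one in nearly all cases. Matched pairs were peaks of both lists that covered at least 50% of each other. Near ends there were 912, of which 894 were less dense in the knockdown (98.03%), where all pairs gave 98%. The knockdown was at least 1.5-fold lower in 478 pairs (52.4%, 49.1 to 55.7%; 50.3% of all pairs) and at least 2-fold lower in 89 (9.76%, 7.91 to 11.9%; 10.4% of all pairs). The median density of these pairs was 1.05 in the knockdown and 1.60 in the control, and the log2 ratio of knockdown over control had a median of -0.61 (quartiles -0.80 and -0.40). Elsewhere it was -0.58 (quartiles -0.81 and -0.37). The difference of -0.021 between the locations turned to 0.024 with chromosomes weighted equally, to 0.017 without chromosome 1, and to 0.056 with an FDR of 5% or less in both peaks. From the outermost to the fifth Mb the median ratio ran through -0.61, -0.62, -0.60, -0.59 and -0.59. Between 5 and 10 Mb it ranged from -0.68 to -0.58 per Mb, mostly at or below the values near the ends, and it was -0.62 from 10 to 20 Mb, -0.62 from 20 to 40 Mb and -0.54 beyond. By chromosome the median ratio was higher near ends on 13 and lower on 9. A density refers to the width of the peak as called in its own list, and in 83.7% of near-end pairs the knockdown call was narrower, where all pairs gave 81.0%.

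Among near-end pairs with at least 200 tags in both peaks, the lowest ratios came from 5 different ends. On 12q, the knockdown peak chr12:133757988-133773992 had a density of 1.85 (1.77 to 1.93) and its control partner 5.46 (5.29 to 5.63), a log2 ratio of -1.56. On 2q, the knockdown peak chr2:242278313-242294991 had 1.87 (1.79 to 1.95) and its partner 5.18 (5.02 to 5.34). The others lay on 21q, with 1.33 in the knockdown and 3.47 in the control, on 20q, with 1.34 and 3.49, and on 5q, with 1.48 and 3.84. These 5 were chosen for their low ratios, and all had intervals far apart.

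The highest ratios were mostly from 1 end, since 3 of the 5 lay on 5p. The highest was the knockdown peak chr5:280843-288174, at 1.21 (1.12 to 1.32), with a control partner at 0.975 (0.851 to 1.11), a log2 ratio of 0.32. The others on 5p were chr5:633704-650112, at 1.66 (1.59 to 1.74) with a partner at 1.55 (1.44 to 1.67), and chr5:1316029-1327609, at 1.85 (1.76 to 1.95) with a partner at 1.78 (1.66 to 1.91). The remaining pairs were on 16p, where the knockdown had 2.54 (2.35 to 2.74) and the control 2.34 (2.14 to 2.55), and on 19p, with 1.08 in both. Of these 5, only the first had intervals that did not overlap. Its knockdown call was 7.33 kb wide and its control call 4.78 kb, so its densities refer to unlike stretches. The calls of the pair at chr5:633704-650112 were also of unlike width, at 16.4 kb in the knockdown and 8.99 kb in the control.

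**Figure D3:**
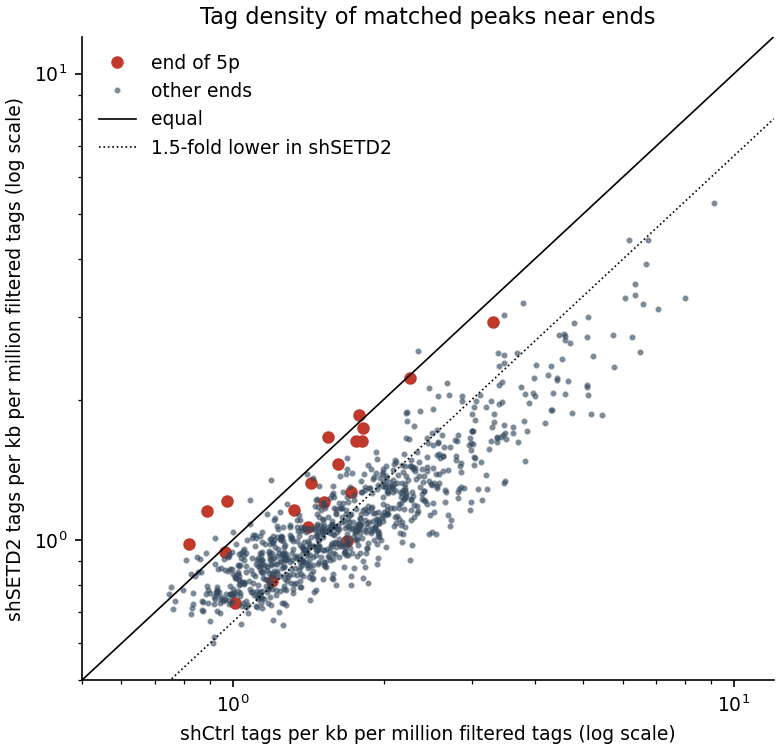
Tag density of the 912 matched near-end pairs, control on the x axis and knockdown on the y axis, in tags per kb per 1000000 filtered tags on log scales. Of the points, 894 lie below the solid line of equality and 478 at or below the dotted 1.5-fold line, and the 20 pairs of 5p (large points) have a median log2 ratio of -0.13.

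The near-end peaks that ranked highest in the knockdown were also concentrated on 5p. By fold enrichment, 3 of the first 6 lay within 1 Mb of that end. They were chr5:633704-650112, described above, chr5:899705-929389 and chr5:880341-897537. The second of these had a density of 2.26 (2.20 to 2.33), and the 2 control peaks over it had 1.90 (1.82 to 1.99), a log2 ratio of 0.25. That knockdown peak was 29.7 kb wide, and the 2 control peaks together were narrower. Their densities thus refer to unlike stretches and do not show a gain in the knockdown. The peak chr5:880341-897537 had a density of 2.93 (2.83 to 3.03), and the 2 control peaks over it had 2.97 (2.84 to 3.10). Of the other 3, chr11:3378807-3399733 on 11p had 2.53 (2.45 to 2.62) where the control had 6.49 (6.33 to 6.64), and chr19:2913348-2919852 on 19p had 1.68 (1.56 to 1.81) against 2.62 (2.45 to 2.79). The peak on 9q, 4.34 kb wide with 738 tags, had 2.53 (2.36 to 2.72). The 1 control peak over it had 2.21 (2.09 to 2.33), but it was wider and held 1412 tags. These 2 densities therefore refer to unlike stretches and do not show a gain in the knockdown.

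The highest-ranked near-end peaks of the control all had a knockdown peak over them, and 4 of 6 lay on chromosome 19. The fourth, chr19:3974896-3985611 on 19p, had the highest densities of the 6, with 5.29 (5.12 to 5.46) in the knockdown and 9.13 (8.88 to 9.40) in the control. On 17p, the knockdown had 2.15 (2.09 to 2.21) over chr17:1553267-1587659 and the control 5.10 (4.99 to 5.21). On 19p, chr19:1249205-1259208 had 2.69 (2.56 to 2.82) and 4.61 (4.42 to 4.80). For the 6, the log2 ratio of knockdown over control ran from -1.24 to -0.78.

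The ends differed widely from each other in the covered length of the knockdown relative to the control. Near ends the knockdown covered 12.05 Mb and the control 24.2 Mb, or 49.8% of the control length, against 48.4% elsewhere. Among calls with an FDR of 5% or less the levels were 10.3% and 7.31%, and among those with a fold enrichment of at least 5 they were 27.1% and 22.5%. Without the ends of 3p and 5p, a choice made after their values were seen, the near-end value was 48.6%, so that the gap of 1.35 points fell to 0.13. Leaving out chromosome 19 gave a gap of 0.32 points and leaving out chromosome 1 a gap of 3.72. Over the 39 ends the median was 45.8% (quartiles 39.3 and 59.2%), with 37 ends below 100%. The 17 short-arm ends together had 52.2% and the 22 long-arm ends 48.0%. The short-arm ends include 3p (184.7%) and 5p (107.9%), which raise their value. Of 22 chromosomes, 12 had the higher value near their ends and 10 the lower. The mean tag density inside near-end peaks was 1.21 in the knockdown and 1.86 in the control, and elsewhere it was 1.15 and 1.85.

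The lowest values belonged to the ends of 8p, 18q, 14q, 20q and 20p. On 8p the knockdown had 10 peaks and 27.5 kb, and the control 42 peaks and 155 kb, or 17.8%. On 18q the lengths were 64.8 and 277 kb (23.4%), and on 14q 184 and 654 kb (28.1%). Both ends of chromosome 20 were alike, with 203 kb in the knockdown and 707 kb in the control on 20q (28.7%), and 211 and 717 kb on 20p (29.4%). Their peaks were also dense, with a median of 1.88 in the control on 20q, the highest of the 39 ends, and 1.26 in the knockdown, also the highest. Density is not corrected for input DNA. Median fold enrichment over input was 3.72 on 20q and 3.74 on 20p in the knockdown, below the 3.87 of all near-end peaks. In the control it was 6.69 and 5.40, above the 5.23 of all near-end peaks but below the 8.44 of 5p. The median log2 ratio of the 12 matched pairs was -0.92 on 20q and of the 12 on 20p -0.93. Low values were also found beyond these ends. The rest of chromosome 20 had 29.5% of the control length and a median log2 ratio of -0.97, and the next 10 Mb had 22.2% on 8p, 30.2% on 18q and 33.6% on 14q.

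The highest values belonged to the ends of 3p, 5p, 10p, 18p and 1q. On 10p the knockdown covered 203 kb and the control 239 kb (84.9%), on 18p 283 and 344 kb (82.3%), and on 1q 246 and 369 kb (66.9%). The ends of 5p and 3p were the only ones with more covered length in the knockdown. On 5p it covered 374 kb with 65 peaks, and the control 347 kb with 43 peaks, or 107.9%. On 3p it covered 121 kb with 36 peaks, and the control 65.5 kb with 21 peaks, or 184.7%.

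On 5p all peaks of both lists lay within 2 Mb of the end. Of its 43 control peaks, 37 had a knockdown peak (86.0%, 72.1 to 94.7%), the highest share of any end. The median log2 ratio of its 20 pairs was -0.13, the nearest to 0, and 5 of these pairs were denser in the knockdown. Those 5 stood among 18 such near-end pairs (1.97%, 1.17 to 3.10%), where 1.96% of all pairs were denser in the knockdown. Of the 65 knockdown peaks on 5p, 30 overlapped no control peak, 27 of them in the outermost Mb. In the next 10 Mb of the arm the knockdown covered 93.3% of the control length, and 79.7% of control peaks (68.3 to 88.4%) were kept. There 74.5% of knockdown peaks lay on a control peak (64.7 to 82.8%), against 53.8% near the end (41.0 to 66.3%).

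The end of 3p held few peaks in either list and no peak in the outermost 3 Mb. Between 4 and 5 Mb the knockdown had 31 peaks and 84.2 kb, and the control 20 peaks and 61.8 kb. Overlap with the control list was found for 15 of the 36 knockdown peaks, or 41.7% (25.5 to 59.2%), the lowest share of any end. None of the 36 had an FDR of 5% or less, nor had any of the 64, 27, 10 and 12 knockdown peaks on 6p, 6q, 8p and 11q. That FDR was rare in the whole knockdown list, with 7.18% of near-end peaks and 5.28% of those of chromosomes 1 to 22. Farther in on 3p, between 5 and 15 Mb, all 126 knockdown peaks overlapped a control peak (97.1 to 100%), and the knockdown covered 47.0% of the control length. The covered length near the end of 3p thus stood apart from that of the adjoining sequence. On 5p the knockdown covered 107.9% of the control length near the end and 93.3% in the next 10 Mb.

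**Figure D4:**
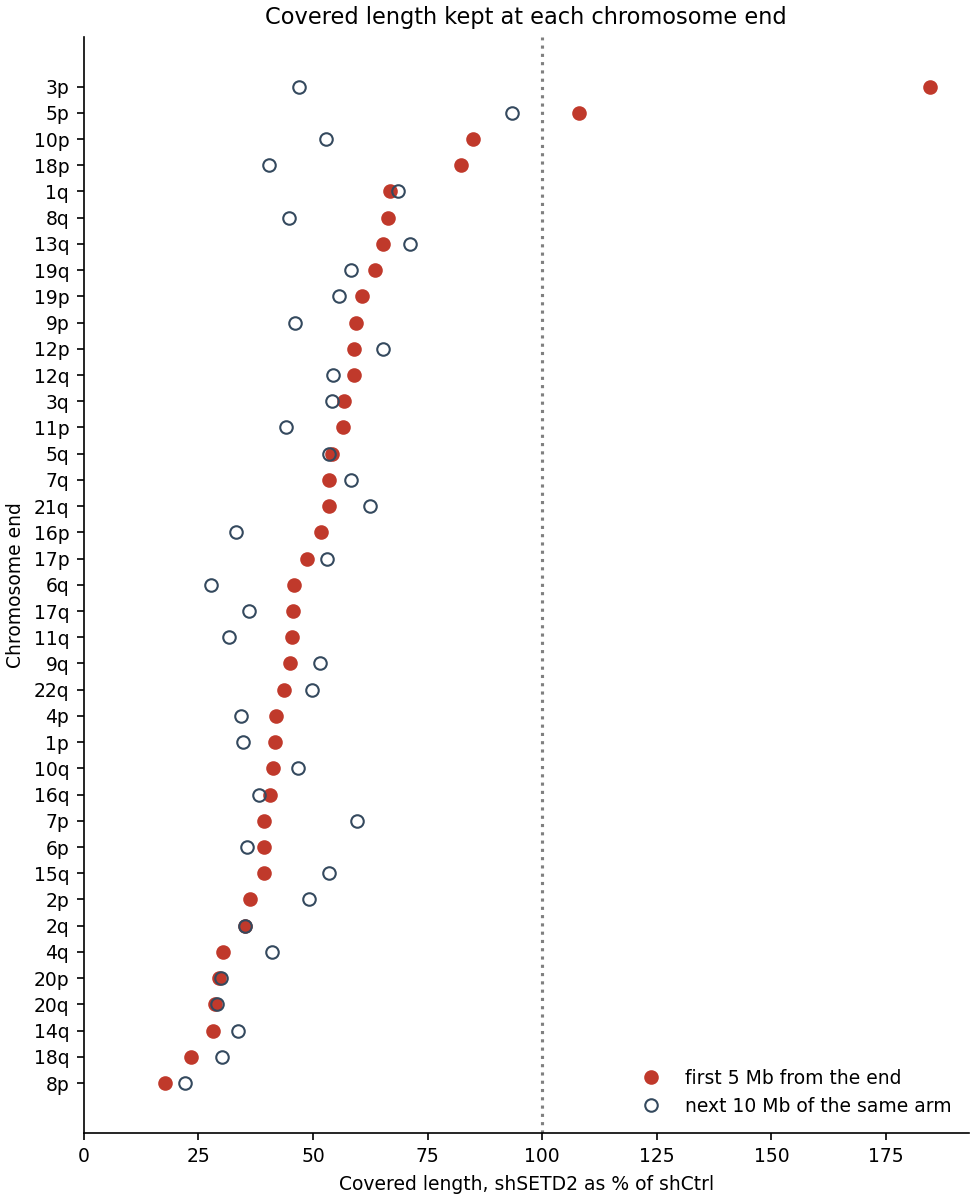
Covered length in the knockdown as percent of the control at each of the 39 ends (filled points) and in the next 10 Mb of the same arm (open points), sorted by the near-end value. The ends run from 17.8% on 8p to 184.7% on 3p, and the dotted line marks 100%.

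Across the 39 ends, the near-end percentage and that of the next 10 Mb of the arm had a Spearman rho of 0.61 and a Pearson r of 0.45. Without 3p they were 0.63 and 0.71, and without 3p and 5p 0.60 and 0.59. All points come from the same pair of pooled lists, and each pairs stretches that adjoin on 1 arm, so the relation is given as a description.

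Knockdown peaks off the control list were unevenly spread. Of the 256 near ends, 51 (19.9%) lay on 3p and 5p, which held 3.97% of the near-end knockdown peaks. Another 21 lay on 3q, 19 on 13q, 16 on 6p, 15 on 10p and 14 on 6q. On 10 ends every knockdown peak overlapped a control peak, among them 1p (58 of 58), 7p (66 of 66) and 4q (29 of 29, 88.1 to 100%). Off-list peaks were weaker calls than the rest of the near-end knockdown peaks, with a median fold enrichment of 3.50 against 3.97 and a median FDR of 77.3% against 61.9%, and the FDR was at most 5% in 8 of the 256, where 1.81% of all off-list peaks passed. Off-list peaks were the weaker calls elsewhere too, with a median fold enrichment of 3.50 against 3.75 and a median FDR of 75.7% against 67.5%. The 5 with the highest fold enrichment came from 5 ends. They were chr11:3694099-3710050 on 11p, with a density of 1.61 (1.53 to 1.68) and an FDR of 0%, chr9:2786953-2795954 on 9p, with 1.17 (1.08 to 1.26) and an FDR of 0.34%, and chr13:113885640-113917248 on 13q, with 1.27 (1.22 to 1.32) but an FDR of 91.88%. The last were chr16:3804898-3809697 on 16p and chr5:378645-389114 on 5p, with FDRs of 10.52% and 6.79%.

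**Figure D5:**
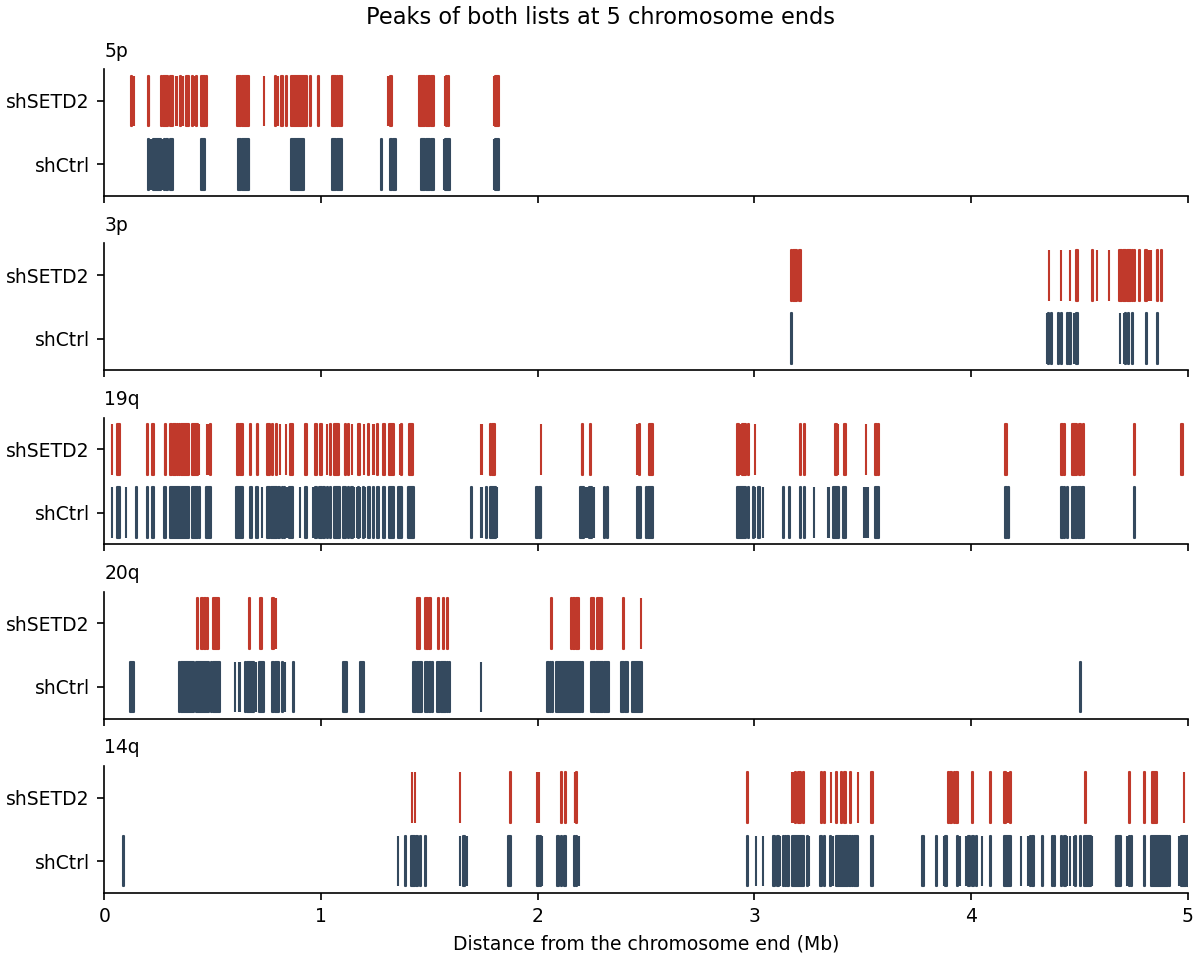
Peaks of the shSETD2 list (upper row of each panel) and the shCtrl list (lower row) at the ends of 5p, 3p, 19q, 20q and 14q, by distance from the end in Mb. On 5p all peaks lie in the outermost 2 Mb and on 3p none in the outermost 3 Mb, and on 20q and 14q the knockdown covers 28.7% and 28.1% of the control length.

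Across the limit of 5 Mb the number of peaks fell, while the overlap measures were higher just outside it. Between 4 and 5 Mb there were 10.7 peaks per Mb in the knockdown and 16.4 in the control, and between 5 and 6 Mb 8.90 and 12.7. Just inside the limit the knockdown covered 49.7% of the control length and 39.6% of control peaks were kept. Just outside it the values were 52.3% and 41.8%. The share of knockdown peaks on control peaks was 83.1% inside (79.1 to 86.5%) and 86.2% outside (82.1 to 89.6%). These steps ran opposite to the unweighted gaps between the near-end peaks and those elsewhere. The peaks nearest to the limit were as follows. The last knockdown peak inside was chr6:4994288-5003469 on 6p (fold enrichment 3.73), and the first outside was chr5:175911803-175915264 on 5q (3.41). The last control peak inside was chr6:4994384-5003136 (7.54), and the first outside was chr17:76184194-76204554 on 17q (17.61). All 4 overlapped a peak of the other list.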

How the data were processed

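H3K36me3 ChIP-seq peak lists of SETD2 knockdown and control HepG2 cells were analysed. Bowtie 1.1.2, FastQC 0.11.5 and the build hg19 are named, per the submitters' processing notes. Peaks were called with MACS 1.4.2 on merged replicates against merged input, with a p-value limit of 1e-05, a fragment size of 294 bp and 1 tag per position, per the file headers. The deposited tag counts are whole numbers per peak. The deposited fold enrichment is a ratio over local input. The deposited score is 10 times the caller's p-value as −log10, at least 50.0 in both lists, and the deposited FDR is in percent, up to 92.83% in the knockdown and 18.77% in the control. The shorter deposited lists held exactly the peaks with an FDR of 5% or less.

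Chromosomes 1 to 22 were used, which left out 464 knockdown and 888 control peaks. The hg19 chromosome lengths of UCSC set the distance from the ends. Overlap meant at least 1 bp, and matched pairs overlapped each other by at least 50%. Density was tags per kb per 1000000 filtered tags. Regions were named by rank: by fold enrichment in each list, with and without an overlapping peak, by density ratio among pairs with at least 200 tags in each peak, and by covered length among ends. The members and lists were chosen with earlier results of these data known. Planned results by gene and sequences of the regions were not produced, since no hg19 annotation or genome was used here. Python 3.11.15, pandas 2.3.3, NumPy 2.4.6, SciPy 1.17.1 and matplotlib 3.10.9 were used, and the overlap and ratio steps were tested on simulated data.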

Additional observations from a re-analysis of the deposited data

How the results depend on the processing

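Values here are the near-end value minus that elsewhere, unless said otherwise. With an FDR of 5% or less in both lists, the gap was 2.15 points for kept control peaks, 2.25 for knockdown peaks on control peaks and 2.95 for covered length, and 0.056 for the log2 density ratio of pairs. With a score of 100 or more the gaps on control peaks and in covered length were 9.89 and 1.65 points, and from a fold enrichment of 5 upward 6.33 and 4.61, with 4.80 for kept control peaks. The near-end share of knockdown and control peaks was 15.05% and 12.04% at that FDR, 11.51% and 11.57% at that score, and 14.53% and 12.67% at that fold enrichment. A limit of 2 Mb gave gaps of 5.12 points (kept), 10.65 (on control peaks), 1.78 (covered length) and -0.032 (log2 ratio), and one of 10 Mb gave 1.36 (kept), 0.46 (covered length) and -0.041 (log2 ratio). With a reciprocal overlap of 80% the ratio gap was -0.026. Chromosomes with equal weight gave 6.26 points (on control peaks), 3.66 (covered length) and 0.024 (log2 ratio). Without chromosome 19 the covered length gap was 0.32 and the ratio gap -0.013. Leaving out each chromosome in turn gave 6.602 to 9.54 points (on control peaks), 0.32 to 3.72 (covered length) and -0.035 to 0.017 (log2 ratio). Leaving out 3p and 5p and the weightings were chosen after seeing the data. The near-end shares of peaks at the stricter FDR, score and fold enrichment were not planned either. Without 3p and 5p the gaps were 9.74 (on control peaks), 0.13 (covered length) and -0.032 (log2 ratio), weighting by fold enrichment gave -2.88 (kept), and weighting by control coverage gave 5.06 (on control peaks). The gap for knockdown peaks on control peaks stayed above 0 in all 13 alternatives, while that for kept peaks was below 0 in 1 of 14 and that of the ratio above 0 in 3 of 10. The cause was not tested. No paired analysis was possible because the replicates were merged before peak calling.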
